A study of Mus musculus with 24 samples.

Results

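Co-cultures of Tmem175-/- macrophages with spleen lymphocytes and tumour antigen (KO_Ag) were set against the same co-cultures with WT macrophages (WT_Ag), at 3 libraries each. These 6 libraries, of 24 in the series, were chosen by the names of their count columns, which give genotype and antigen. The macrophages were bone-marrow-derived (BMDMs). The lymphocytes came from animals with tumours of B16-F10-OVA, melanoma cells of mouse engineered to make the model antigen ovalbumin, and the antigen was material of the same tumour cells. Both groups therefore received antigen, neither received added cytokine, and they differed in the labelled genotype of the macrophages. The genotype of the lymphocytes, the ages of the mice and any batch or date are not in the labels, and the sample titles, not the genotype field, were used for the knockout. That field names Tmem178-/-, Tmem179-/- and Tmem180-/- in the 3 KO_Ag samples, and another gene than Tmem175 in 11 of the 12 knockout samples of the series, whereas their titles name Tmem175-/-. Poly(A) RNA of the whole co-culture was sequenced, so a lower level of a transcript cannot tell fewer cells of a type apart from less RNA per cell. Nor do they give the source of the 3 replicates, which may be other mice, other preparations or other wells, and p-values measure only the spread between these samples.

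TMEM175 is an ion channel of the membrane of late endosomes and lysosomes that conducts potassium ions and protons. It is known for its part in setting lysosomal membrane potential and luminal pH, and for its genetic link to Parkinson's disease. In macrophages the lysosome degrades engulfed material, supplies proteases for antigen processing and, when damaged, is a trigger of the inflammasome that matures IL-1β and IL-18.

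The 3 KO_Ag libraries held 20219184 to 23381468 counts and the 3 WT_Ag libraries 17744540 to 24060414. Levels are given as CPM, counts scaled to a common library size with edgeR's TMM factors, in the order of replicates 1, 2 and 3. Differences are log2 fold changes, knockout over WT, with their standard error and a Benjamini-Hochberg adjusted p from edgeR's quasi-likelihood test, and a gene was called at an adjusted p under 0.05. Macrophage markers summed to 16700 to 19400 CPM in KO_Ag and 25600 to 26500 CPM in WT_Ag, T cell markers to 33.4 to 38.3 and 32.7 to 36.8 CPM, and B cell markers to 65.2 to 69 and 58.6 to 62.5 CPM. Without Lyz2, described below, the macrophage markers summed to 10700 to 11800 CPM in KO_Ag and 11100 to 11600 CPM in WT_Ag. In the 6 libraries the first principal component, 78% of the variance, separated the genotypes. Replicates 1 and 2 of KO_Ag were the pair of replicates farthest apart, with a chi-square of 9.67 per degree of freedom over genes against 2.49 to 5.3 in the other pairs, so no library was a duplicate of another. Counts of calls that moved by over 1.5 times without KO_Ag replicate 1, or without another library, are given with and without it. Some counts of 0 or 1 are exceptions. The lower members of the lysosomal hydrolase list and of the lipid efflux list went from 1 to 0 without KO_Ag replicate 1. The higher type I interferon-stimulated genes went from 0 to 1 without WT_Ag replicate 2.

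Tmem175 RNA was reduced but not lost. It stood at 7.61, 8.75 and 8.12 CPM in KO_Ag and at 13.7, 16.3 and 15.7 CPM in WT_Ag, which was 1.88-fold lower (log2 fold change -0.91 ± 0.083, adjusted p 3.17e-09). Every knockout library was below every WT library. Gene-level counts do not show which part of the transcript the remaining reads covered. Among the 10 tested genes on each side of Tmem175 on chromosome 5, in RefSeq GRCm38.p6 order, 2 of 20 were called, both higher, against 7.7% of all tested genes called higher. They were neighbours of each other, Zfp932 and Gm15446. Zfp932, a zinc finger gene, stood at 21.8, 21.1 and 23.1 CPM in KO_Ag and 13.2, 11.1 and 11.5 CPM in WT_Ag (0.89 ± 0.0742, adjusted p 6.71e-10). Gm15446 averaged 19 CPM in KO_Ag and 0.0468 CPM in WT_Ag, a level at which no fold is given, and reads of such related zinc finger genes may be shared between copies.

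Across the transcriptome 2160 of 14099 tested genes were called (15.3%), of which 1085 were higher (7.7%) and 1075 lower (7.62%) in KO_Ag. Most differences were small, with a median size of 0.389 on the log2 scale among called genes, or 1.31-fold. By at least 2-fold, 259 were higher (1.84%) and 304 lower (2.16%). Of those 259, 81 were not immunoglobulin genes. By at least 8-fold, 189 were higher, 21 of them not immunoglobulin genes, and 5 were lower. The 3 libraries of each genotype did not overlap for 4376 genes (31%), and the median log2 fold change over all tested genes was 0.00415. Genes said below not to overlap are to be read beside that 31%, and list counts beside 7.7% higher and 7.62% lower.

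**Figure D1:**
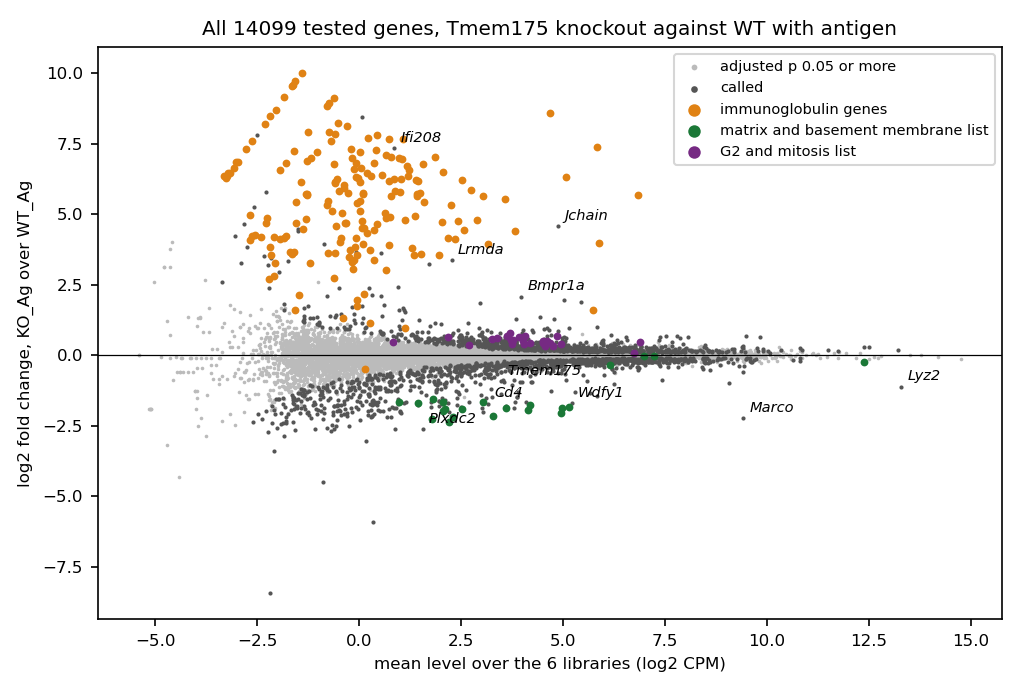
Mean log2 CPM over the 6 libraries (x axis) against the log2 fold change of KO_Ag over WT_Ag (y axis) for 14099 tested genes, with immunoglobulin genes, the matrix and basement membrane list and the G2 and mitosis list in colour. Most immunoglobulin genes lie far above 0 and matrix genes mostly below -1. The mitosis genes all lie above 0, with a median of 0.515.

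Surface receptors by which macrophages bind particles and debris changed in both directions. Of 21 scavenger and endocytic receptors 5 were higher and 5 lower (median -0.0426), beside 7.7% and 7.62% of all tested genes. Marco, a receptor for bacteria and unopsonised particles, stood at 266, 362 and 323 CPM in KO_Ag and 1640, 1460 and 1390 CPM in WT_Ag, 4.72-fold lower (-2.24 ± 0.12, adjusted p 5.93e-10). The lowest WT library was far above the highest knockout library. Cd163, the receptor for haptoglobin-haemoglobin complexes, stood at 0.68, 1.14 and 1.01 CPM in KO_Ag and 3.16, 3.35 and 3.8 CPM in WT_Ag, 3.66-fold lower (adjusted p 5.46e-07). Cd5l, a secreted scavenger protein of tissue macrophages, stood at 31.2, 42.4 and 31 CPM in KO_Ag and 94.7, 99.2 and 87.9 CPM in WT_Ag, 2.71-fold lower (adjusted p 2.85e-06). Colec12, a collectin that binds oxidised lipoprotein, was at 5.57, 8.25 and 6.84 CPM in KO_Ag against 11.5, 11.8 and 12.1 CPM in WT_Ag (-0.79 ± 0.132, adjusted p 0.00016). In all 4 of these genes, which were chosen among called genes, the genotypes did not overlap, as for 31% of all tested genes, and KO_Ag replicate 2 was the highest knockout library.

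The receptors that were higher included Cd36, which takes up oxidised lipids and apoptotic cells. It stood at 1040, 1290 and 1120 CPM in KO_Ag and 718, 775 and 712 CPM in WT_Ag (0.64 ± 0.088, adjusted p 4.81e-05). Mrc1, the mannose receptor, stood at 239, 332 and 284 CPM in KO_Ag and 167, 192 and 177 CPM in WT_Ag (0.67 ± 0.138, adjusted p 0.00275). Folr2, a folate receptor of macrophages, was 2-fold higher, at 78.8, 87.7 and 77.2 CPM in KO_Ag against 33.3, 47.5 and 40.1 CPM in WT_Ag (adjusted p 1.02e-05). Havcr2, which encodes the phosphatidylserine receptor and checkpoint molecule TIM-3, was at 25.5, 27.5 and 28.4 CPM in KO_Ag against 20.7, 20.5 and 20.9 CPM in WT_Ag (0.39 ± 0.0748, adjusted p 0.000428). Not all macrophage genes moved. Adgre1, which encodes the surface antigen F4/80, stood at 4340, 4670 and 4500 CPM in KO_Ag and 4930, 4770 and 4690 CPM in WT_Ag (-0.09, adjusted p 0.118), and Csf1r, the receptor for the macrophage growth factor, had a log2 fold change of -0.14 (adjusted p 0.0644). Cd68, a lysosome-associated glycoprotein of macrophages, was slightly higher, at 908, 997 and 949 CPM in KO_Ag against 748, 844 and 801 CPM in WT_Ag (0.25 ± 0.0458, adjusted p 0.000195).

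**Figure D2:**
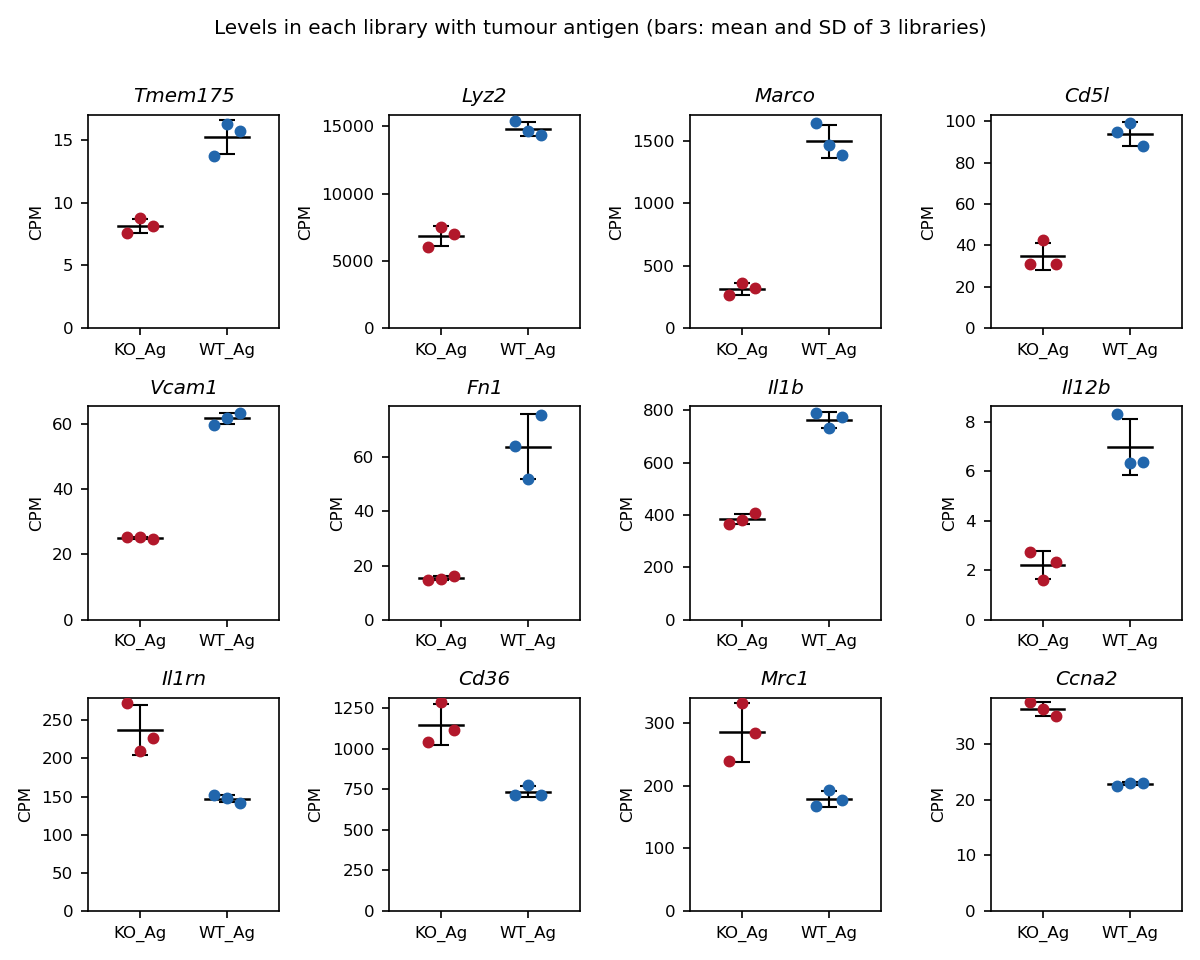
CPM in each of the 6 libraries for 12 genes, KO_Ag on the left and WT_Ag on the right of each panel, with the mean and SD of 3 libraries. Tmem175, Lyz2, Marco, Cd5l, Vcam1, Fn1, Il1b and Il12b are lower and Il1rn, Cd36, Mrc1 and Ccna2 higher in KO_Ag, with no overlap in any panel.

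The lysosome, where TMEM175 acts, showed changes in lysozyme, in several cathepsins and in some other enzymes. Lyz2, the macrophage lysozyme that cleaves bacterial cell walls, stood at 6020, 7540 and 6990 CPM in KO_Ag and 15400, 14700 and 14300 CPM in WT_Ag, 2.16-fold lower (-1.11 ± 0.0598, adjusted p 1.63e-11). Its close copy Lyz1 went the other way, at 56.9, 68.3 and 67.1 CPM in KO_Ag and 18.4, 15.6 and 16.3 CPM in WT_Ag (3.84-fold higher, adjusted p 4.48e-09). Both pairs of groups were far apart, but the genes are near-identical, and the counting, which is not described in the sources used here, could have split reads between them. Of 14 cathepsin and legumain genes 6 were higher and 1 lower (median 0.153), beside 7.7% and 7.62% of all tested genes. Lgmn, legumain, which trims other lysosomal proteases, stood at 1970, 2000 and 1940 CPM in KO_Ag and 1610, 1720 and 1610 CPM in WT_Ag, 1.2-fold higher (0.26 ± 0.0379, adjusted p 1.1e-05). Ctsb, cathepsin B, stood at 10100, 10400 and 10200 CPM in KO_Ag and 8680, 9350 and 8760 CPM in WT_Ag, 1.14-fold higher (adjusted p 0.000388). Ctsk, cathepsin K, which degrades collagen, stood at 20.4, 30.4 and 26.4 CPM in KO_Ag and 14.3, 14.7 and 14.2 CPM in WT_Ag, 1.78-fold higher (adjusted p 0.00759). Every knockout library was above every WT library for these 3 proteases. Ctss, cathepsin S, which processes the invariant chain of MHC class II, was higher at 0.29 ± 0.0657 (adjusted p 0.00465). Ctsf, cathepsin F, was the member called lower, at 2.04, 3.58 and 2.43 CPM in KO_Ag and 3.84, 4.23 and 4.88 CPM in WT_Ag (adjusted p 0.00178). The aspartic protease gene Ctsd did not pass (0.10).

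Of 29 lysosomal hydrolases and membrane proteins 7 were higher and 1 lower (median 0.00699), beside 7.7% and 7.62% of all tested genes. Without KO_Ag replicate 3 only 4 were higher. Gla, alpha-galactosidase, stood at 419, 384 and 410 CPM in KO_Ag and 356, 363 and 357 CPM in WT_Ag (0.17 ± 0.0343, adjusted p 0.000652). The membrane protein gene Lamp1 (0.08) and the saposin precursor gene Psap (-0.01) did not pass. Of 17 genes of the lysosomal proton pump 3 were higher, among them the subunit gene Atp6v1b2 at 0.14 ± 0.0332 (adjusted p 0.00385). Of 15 lysosomal ion channels 4 were higher and 1, Tmem175 itself, was lower, and 2 were higher without KO_Ag replicate 3 or without WT_Ag replicate 1. P2rx4, an ATP-gated channel of lysosomes and plasma membrane, stood at 393, 400 and 378 CPM in KO_Ag and 310, 334 and 315 CPM in WT_Ag (0.29 ± 0.0379, adjusted p 2.2e-06). Tpcn2, a two-pore channel of lysosomes, stood at 44.2, 48.8 and 51.1 CPM in KO_Ag and 42.7, 40.9 and 40.9 CPM in WT_Ag (0.21 ± 0.0509, adjusted p 0.00427). Every P2rx4 value in KO_Ag was above every one in WT_Ag, and the same held for Tpcn2 and Gla. Of 24 autophagy genes and regulators of lysosome biogenesis 3 were lower, and 1 without WT_Ag replicate 2, a share near the 7.62% of all tested genes called lower. Wipi1, a binder of phosphoinositides at forming autophagosomes, stood at 24.8, 28 and 24.6 CPM in KO_Ag and 31.5, 32.6 and 31.4 CPM in WT_Ag (-0.31 ± 0.0557, adjusted p 0.000218). Wdfy1, a FYVE-domain protein of early endosomes that acts as an adaptor for Toll-like receptors, had a far larger difference, at 22.7, 18.6 and 20.7 CPM in KO_Ag and 69.6, 64.8 and 67.4 CPM in WT_Ag, 3.24-fold lower (-1.70 ± 0.0672, adjusted p 5.94e-17).

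Part of the inflammatory cytokine genes were lower in KO_Ag, and the antagonist of IL-1 was higher. Of 17 tested cytokine genes 7 were lower and the other 10 were not called (median -0.187), beside 7.62% lower over all tested genes. Il1b stood at 367, 382 and 406 CPM in KO_Ag and 789, 731 and 772 CPM in WT_Ag, 1.98-fold lower (-0.99 ± 0.193, adjusted p 0.00176 with edgeR and 0.069 with DESeq2). Il1rn, whose product blocks the IL-1 receptor, stood at 273, 210 and 227 CPM in KO_Ag and 152, 148 and 142 CPM in WT_Ag, 1.61-fold higher (0.68 ± 0.111, adjusted p 0.000326). The IL-12 subunit genes were both lower. Il12b, the subunit shared with IL-23, stood at 2.72, 1.59 and 2.34 CPM in KO_Ag and 8.3, 6.33 and 6.36 CPM in WT_Ag, 3.1-fold lower (adjusted p 1.92e-07). Il12a stood at 5.31, 6.81 and 6.7 CPM in KO_Ag and 11.2, 10.7 and 11.2 CPM in WT_Ag, 1.76-fold lower (adjusted p 0.000331). None of these groups overlapped, as for 31% of all tested genes.

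The growth factor genes Csf1 and Lif of the same list were lower as well. Csf1, the macrophage colony-stimulating factor, stood at 13.7, 11.5 and 14.9 CPM in KO_Ag and 29.2, 20.9 and 28.3 CPM in WT_Ag, 1.94-fold lower (adjusted p 0.000194). Lif, a cytokine of the IL-6 family, stood at 2.08, 1.99 and 2.21 CPM in KO_Ag and 3.73, 3.39 and 3.95 CPM in WT_Ag, 1.75-fold lower (adjusted p 0.00216). Il6 stood at 2.51, 1.99 and 2.69 CPM in KO_Ag and 7.45, 4.52 and 5.23 CPM in WT_Ag (-1.23 ± 0.249, adjusted p 0.00128). Il1a was at 34.9, 36.4 and 35.3 CPM in KO_Ag and 47.9, 43.9 and 45.5 CPM in WT_Ag (adjusted p 7.52e-05). All 4 genes separated the genotypes without overlap, as 31% of all tested genes did, with WT_Ag replicate 2 the lowest WT library in each. Other members had overlapping or close values. Tnf stood at 62, 44.3 and 53.2 CPM in KO_Ag and 68.3, 54.6 and 59.8 CPM in WT_Ag (-0.19, adjusted p 0.434). The anti-inflammatory cytokine gene Il10 stood at 18.7, 9.69 and 12.3 CPM in KO_Ag and 11.4, 8.25 and 8.68 CPM in WT_Ag (0.55, adjusted p 0.154), and its value was highest in KO_Ag replicate 1. Of 15 inflammasome sensors, caspases and gasdermins 1 was called higher, Casp4, beside 7.7% higher over all tested genes, and that call was lost without KO_Ag replicate 1 or 3 or WT_Ag replicate 3. Casp12, a caspase of the endoplasmic reticulum outside that list, was higher at 0.96 ± 0.249 (adjusted p 0.0126).

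Genes that NF-kB, a transcription factor of inflammation, induces as its own regulators were slightly lower in part. Of 17 NF-kB subunits and feedback regulators 5 were lower and the other 12 were not called (median -0.122). All tested genes gave 7.7% higher and 7.62% lower. Birc3, an inhibitor of apoptosis downstream of TNF, stood at 178, 178 and 174 CPM in KO_Ag and 215, 215 and 209 CPM in WT_Ag (-0.27 ± 0.037, adjusted p 4.16e-06). Tnfaip3, the deubiquitinase A20 that ends NF-kB signalling, stood at 73.4, 69.6 and 66.3 CPM in KO_Ag and 85.9, 84.7 and 83.1 CPM in WT_Ag (-0.28 ± 0.0504, adjusted p 0.000228). Traf1, a signalling adaptor, stood at 19.4, 16.5 and 19.5 CPM in KO_Ag and 25.1, 26.3 and 24 CPM in WT_Ag (-0.44 ± 0.098, adjusted p 0.00255). For each of the 3 genes the highest knockout library lay below the lowest WT library, and 31% of all tested genes also had no overlap. The inhibitor gene Nfkbia did not pass (-0.15, adjusted p 0.241). Of 19 Toll-like receptors and adaptors 3 were higher and 2 lower, and 1 was lower without KO_Ag replicate 2 or 3 or WT_Ag replicate 1 or 3. Cd14, the co-receptor for lipopolysaccharide, stood at 497, 580 and 596 CPM in KO_Ag and 869, 791 and 885 CPM in WT_Ag, 1.52-fold lower (adjusted p 1.75e-05). Tlr13, an endosomal receptor for bacterial ribosomal RNA, stood at 372, 444 and 407 CPM in KO_Ag and 301, 331 and 325 CPM in WT_Ag (0.35 ± 0.0736, adjusted p 0.00216). Tlr2 did not pass, at 161, 197 and 196 CPM in KO_Ag and 200, 181 and 203 CPM in WT_Ag.

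Promoters of the lower genes Cxcl1, Csf1 and Il6 hold a pattern close to the NF-kB consensus but not identical to it, and their sequences are shown as examples. They are the 250 bases before the RefSeq start site on GRCm38.p6, read along the strand of the gene, with matches to GGG, any 2 letters and TTTCC on either strand in capitals. This motif occurred in 1.4% of 27025 mouse promoters of the same length and in 1.46% of those of tested genes. It occurred in 2 of 11 matched cytokine promoters (18.2%), 4 of 16 chemokine promoters (25%) and 5 of 14 promoters of the NF-kB list (35.7%). Besides the 3 shown, the lower genes Rel and Tnfaip3 hold it, and so do Ccl9, Cxcl2, Cxcl3, Cyld, Nfkb2 and Nfkbia, which were not called. A match describes letters in the window and says nothing of binding. Cxcl1 has 2 matches, and Csf1 and Il6 have 1 each. Cxcl1 lies on the plus strand at chr5:90890995-90891244, Csf1 on the minus strand at chr3:107760470-107760719 and Il6 on the plus strand at chr5:30012864-30013113.
Cxcl1: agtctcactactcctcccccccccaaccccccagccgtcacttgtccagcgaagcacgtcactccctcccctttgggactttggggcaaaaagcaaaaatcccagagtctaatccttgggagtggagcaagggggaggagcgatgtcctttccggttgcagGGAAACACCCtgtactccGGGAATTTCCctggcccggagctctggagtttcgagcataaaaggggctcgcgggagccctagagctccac
Csf1: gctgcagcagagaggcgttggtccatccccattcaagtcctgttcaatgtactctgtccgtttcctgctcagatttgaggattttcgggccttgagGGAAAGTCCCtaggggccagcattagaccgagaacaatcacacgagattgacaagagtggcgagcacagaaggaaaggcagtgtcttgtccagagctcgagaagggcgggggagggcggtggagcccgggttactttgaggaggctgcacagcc
Il6: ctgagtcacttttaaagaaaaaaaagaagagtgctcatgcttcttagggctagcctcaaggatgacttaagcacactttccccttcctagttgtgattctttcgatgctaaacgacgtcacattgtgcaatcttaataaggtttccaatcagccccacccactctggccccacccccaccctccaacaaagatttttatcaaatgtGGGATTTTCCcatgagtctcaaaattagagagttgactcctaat

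Chemokines, which recruit leukocytes, split by member. Of 22 tested chemokine genes 4 were higher and 5 lower (median -0.167), beside 7.7% and 7.62% of all tested genes. With a fit of the 6 libraries alone 2 were higher. Ccl22, a ligand of CCR4 that attracts regulatory T cells, stood at 6.25, 4.77 and 5.95 CPM in KO_Ag and 16.9, 14.5 and 17 CPM in WT_Ag, 2.83-fold lower (adjusted p 1.02e-07). Cxcl1, which attracts neutrophils, stood at 4.8, 5.61 and 5.91 CPM in KO_Ag and 12, 9.84 and 11.8 CPM in WT_Ag (-1.04 ± 0.129, adjusted p 7.7e-07). Ccl3, an inflammatory chemokine of macrophages, stood at 108, 91.1 and 96.7 CPM in KO_Ag and 131, 126 and 134 CPM in WT_Ag (-0.40 ± 0.0885, adjusted p 0.00361). These 3 genes were lower in every knockout library. The monocyte-attracting Ccl12 was 1.84-fold higher, at 33.1, 22.3 and 22.4 CPM in KO_Ag against 14.2, 15.5 and 12.6 CPM in WT_Ag (adjusted p 0.0011), and Ccl8 was 2.07-fold higher, at 5.91, 4.67 and 4.06 CPM in KO_Ag against 1.69, 2.97 and 2.27 CPM in WT_Ag (adjusted p 0.00114). Ccl2, another monocyte chemokine, stood at 317, 195 and 222 CPM in KO_Ag and 237, 192 and 204 CPM in WT_Ag, with overlapping groups (0.21, adjusted p 0.544). KO_Ag replicate 1 was the highest library for Ccl12, Ccl8 and Ccl2.

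Ccr7, the receptor that guides mature dendritic cells to lymph nodes, stood at 4.04, 4.37 and 3.4 CPM in KO_Ag and 7.9, 6.41 and 7.99 CPM in WT_Ag, 1.88-fold lower (adjusted p 0.000501). Fscn1, an actin bundler of dendritic cells, stood at 5.95, 4.12 and 5.16 CPM in KO_Ag and 15.9, 13.6 and 14.9 CPM in WT_Ag, 2.88-fold lower (adjusted p 1.95e-08). With Ccl22 they are the 3 of 8 tested dendritic cell markers that were lower, whereas 1 was higher, Itgax, whose call was lost without KO_Ag replicate 2 or 3 or WT_Ag replicate 1 or 3. The dendritic cell markers summed to 46.2 to 64.4 CPM in KO_Ag and 65.3 to 70.1 CPM in WT_Ag, and the part of this difference in the chemokine and Ccr7 values was not tested. Members of the 2 interferon lists were not called in this comparison. Of 23 type I interferon-stimulated genes (median 0.113) 0 passed with edgeR and 0 with DESeq2, and 2 were higher at an unadjusted p under 0.05. Of 21 interferon-gamma-induced genes (median 0.0672) 0 passed with edgeR and 0 with DESeq2, and 2 were lower at an unadjusted p under 0.05. With the 6 libraries alone 3 of the first list were higher, and 5 of the second were higher and 3 lower.

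Genes of antigen presentation and co-stimulation gave few calls. Of 16 MHC class I presentation genes 1 was higher, H2-D1, at 3510, 3590 and 3690 CPM in KO_Ag against 3190, 3340 and 3310 CPM in WT_Ag. That call was lost under 4 of 12 alternatives. Of 17 costimulatory and checkpoint ligands 2 were higher and 1 lower, beside 7.7% and 7.62% of all tested genes. Without KO_Ag replicate 2, 1 was higher, and without WT_Ag replicate 1, 2 were lower. The call of Tnfsf14, of that list, was lost under 6 of 12. Of 10 MHC class II presentation genes 1 was lower, beside 7.62% of all tested genes. It was H2-Ob, whose product restrains peptide loading, at 2.47, 1.79 and 2.07 CPM in KO_Ag against 3.05, 3.81 and 4.69 CPM in WT_Ag (-0.86 ± 0.187, adjusted p 0.00152). Cd74, the invariant chain, stood at 268, 436 and 429 CPM in KO_Ag and 291, 298 and 330 CPM in WT_Ag (0.30 ± 0.229, adjusted p 0.449), and KO_Ag replicate 1 was its lowest library. Nectin2, a ligand of the inhibitory receptor TIGIT, stood at 23.3, 28.5 and 25.3 CPM in KO_Ag and 33, 33.2 and 33.9 CPM in WT_Ag (-0.38 ± 0.0579, adjusted p 2.11e-05). Cd276, the checkpoint ligand B7-H3, stood at 5.99, 6.96 and 7.68 CPM in KO_Ag and 4.35, 4.4 and 4.29 CPM in WT_Ag (0.66 ± 0.143, adjusted p 0.00162). Nectin2 and Cd276 moved in opposite directions without overlap between genotypes. Cd274, which encodes the checkpoint ligand PD-L1, stood at 1840, 1680 and 1700 CPM in KO_Ag and 1660, 1770 and 1680 CPM in WT_Ag and did not pass (0.03, adjusted p 0.932).

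Of 9 genes of arginine, nitric oxide and itaconate metabolism 3 were lower and 1 higher (median -0.194), beside 7.62% and 7.7% of all tested genes. Arg1, arginase 1, stood at 41.3, 25.6 and 29.7 CPM in KO_Ag and 85.7, 83.2 and 78.8 CPM in WT_Ag, 2.55-fold lower (-1.35 ± 0.215, adjusted p 0.000285). Slc7a2, an arginine transporter, stood at 14.9, 12.7 and 13.5 CPM in KO_Ag and 29.1, 23.4 and 26.7 CPM in WT_Ag, 1.91-fold lower (adjusted p 0.000458). Ass1, which regenerates arginine, was lower at -0.23 ± 0.0506 (adjusted p 0.00224). The member called higher was Odc1, which starts polyamine synthesis, at 80.2, 73.1 and 73.9 CPM in KO_Ag and 66.7, 67.6 and 67.2 CPM in WT_Ag (0.17 ± 0.0578, adjusted p 0.0413). That call was lost with DESeq2 (0.064) and without any 1 library but KO_Ag replicate 2, with an adjusted p of 0.0576 to 0.156. Nos2, the inducible nitric oxide synthase that competes for arginine, stood at 669, 467 and 595 CPM in KO_Ag and 723, 585 and 674 CPM in WT_Ag and did not pass (-0.19, adjusted p 0.696). Irf4, a transcription factor of alternatively activated macrophages and of plasma cells, was 2.21-fold higher, at 9.65, 8.84 and 10.5 CPM in KO_Ag against 3.22, 4.48 and 5.33 CPM in WT_Ag (adjusted p 7.76e-07).

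Of 20 complement components and receptors 5 were higher and 4 lower (median 0.0377), beside 7.7% and 7.62% of all tested genes. Without KO_Ag replicate 2 or without WT_Ag replicate 3, 3 were higher. C4b, a component of the classical pathway, stood at 36.5, 35.1 and 32.6 CPM in KO_Ag and 13.4, 14.4 and 13 CPM in WT_Ag, 2.55-fold higher (1.35 ± 0.136, adjusted p 5.87e-07). The membrane-bound regulators Cd55 and Cd59a, which protect cells from complement, were lower. Cd55 stood at 17.1, 11.9 and 13.5 CPM in KO_Ag and 28.1, 20.5 and 23.2 CPM in WT_Ag (-0.74 ± 0.124, adjusted p 0.000194), and Cd59a at 6.59, 5.81 and 6.66 CPM in KO_Ag and 9.37, 10.1 and 10.5 CPM in WT_Ag (-0.65 ± 0.0872, adjusted p 3.05e-06). None of these 3 genes overlapped between genotypes, as for 31% of all tested genes.

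Most cell division genes were higher in KO_Ag by a small margin. Of 26 G2 and mitosis genes 24 were higher and the other 2 were not called, with a median log2 fold change of 0.515, beside 7.7% higher and a median of 0.00415 over all tested genes. Of 28 DNA replication genes 20 were higher and the other 8 were not called (median 0.304). Ccna2, cyclin A2, which drives S phase and entry into mitosis, stood at 37.6, 36.3 and 35 CPM in KO_Ag and 22.5, 23 and 23.1 CPM in WT_Ag, 1.59-fold higher (0.67 ± 0.0558, adjusted p 6.75e-10). Nusap1, a spindle protein, stood at 22.1, 21.7 and 20.6 CPM in KO_Ag and 13.2, 14.3 and 12.4 CPM in WT_Ag (0.69, adjusted p 1.74e-08). Top2a, the topoisomerase that untangles chromosomes, stood at 149, 142 and 128 CPM in KO_Ag and 93.7, 103 and 103 CPM in WT_Ag, 1.4-fold higher (0.48 ± 0.0557, adjusted p 4.14e-07). The knockout libraries were above all WT libraries for each of the 3 genes, and the spread within a genotype was small. No overlap was also seen for 31% of all tested genes. Mki67, the proliferation antigen, was 1 of the 2 members not called, at 111, 118 and 101 CPM in KO_Ag and 98, 110 and 102 CPM in WT_Ag (0.09, adjusted p 0.461). The other was Cdc25c, at 2.04, 1.74 and 2.43 CPM in KO_Ag and 1.92, 1.05 and 1.68 CPM in WT_Ag (0.46, adjusted p 0.196).

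Among replication genes, Rrm1, the large subunit of ribonucleotide reductase, stood at 78.5, 72.7 and 65.9 CPM in KO_Ag and 57.1, 56.6 and 54.4 CPM in WT_Ag (0.37 ± 0.0519). Pcna, the sliding clamp of DNA polymerase, stood at 164, 156 and 154 CPM in KO_Ag and 133, 132 and 128 CPM in WT_Ag, 1.2-fold higher (adjusted p 5.47e-05). Mcm5, a subunit of the replicative helicase, stood at 24.9, 24.8 and 24.3 CPM in KO_Ag and 18.3, 20.2 and 19 CPM in WT_Ag (0.36 ± 0.0716, adjusted p 0.000675). These groups did not overlap. Among genes of S phase entry, E2f1 (-0.06) and Ccne1 (0.02) did not pass. Ccne2, another of them, stood at 11.1, 11.2 and 11.2 CPM in KO_Ag and 7.74, 8.84 and 7.84 CPM in WT_Ag, without overlap. Of 14 cell cycle inhibitors and G1 cyclins 2 were lower and 1 higher, beside 7.62% and 7.7% of all tested genes. Cdkn1b, the cell cycle inhibitor p27, was lower, at 83.9, 79.9 and 81.9 CPM in KO_Ag against 99.9, 94.9 and 104 CPM in WT_Ag (-0.28 ± 0.04, adjusted p 7.39e-06). So was Btg1, an antiproliferative gene (-0.23 ± 0.052, adjusted p 0.00236). The inhibitor Cdkn2c was higher, at 10.5, 12.8 and 12.3 CPM in KO_Ag against 7.34, 11.1 and 8.09 CPM in WT_Ag, with overlapping groups (0.40 ± 0.136, adjusted p 0.0497), and that call was lost without KO_Ag replicate 2 or 3 or WT_Ag replicate 1 or 3 (0.14 to 0.203).

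Many promoters of mitosis genes are known to combine CCAAT boxes with a cell cycle homology region, TTTGAA, and 3 are shown because they hold the letters of both. The windows are again 250 bases before the start on GRCm38.p6, with CCAAT and TTTGAA on either strand in capitals. CCAAT occurred in 19 of 21 matched G2 and mitosis promoters (90.5%) and 15 of 22 replication promoters (68.2%), beside 34.5% of all promoters and 36.6% of those of tested genes. TTTGAA occurred in 7 of 21 (33.3%) and 3 of 22 (13.6%), beside 16.3% of all and 10.9% of tested genes. Both occurred in 7 of 21 mitosis promoters, beside 5.73% of all and 4.28% of tested genes. Such a match describes letters and does not show that the stretch is a working cell cycle homology region. In Ccnb2 the TTTGAA begins 167 bases before the start, upstream of its CCAAT matches at 87, 54 and 21 bases. Ccnb2 encodes cyclin B2, and Kif11 a motor of the spindle. Ccnb2 lies on the minus strand at chr9:70421555-70421804, Top2a on the minus strand at chr11:99024190-99024439 and Kif11 on the plus strand at chr19:37376132-37376381.
Ccnb2: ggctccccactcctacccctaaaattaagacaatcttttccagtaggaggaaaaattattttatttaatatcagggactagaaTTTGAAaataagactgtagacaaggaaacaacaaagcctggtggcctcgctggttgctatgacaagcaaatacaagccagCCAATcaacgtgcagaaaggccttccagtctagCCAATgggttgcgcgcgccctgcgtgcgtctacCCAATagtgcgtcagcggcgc
Top2a: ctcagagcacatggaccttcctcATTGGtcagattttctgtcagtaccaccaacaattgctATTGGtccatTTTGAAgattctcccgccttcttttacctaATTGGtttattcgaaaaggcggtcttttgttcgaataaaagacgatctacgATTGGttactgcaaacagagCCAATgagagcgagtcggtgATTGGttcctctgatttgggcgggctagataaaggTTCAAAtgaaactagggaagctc
Kif11: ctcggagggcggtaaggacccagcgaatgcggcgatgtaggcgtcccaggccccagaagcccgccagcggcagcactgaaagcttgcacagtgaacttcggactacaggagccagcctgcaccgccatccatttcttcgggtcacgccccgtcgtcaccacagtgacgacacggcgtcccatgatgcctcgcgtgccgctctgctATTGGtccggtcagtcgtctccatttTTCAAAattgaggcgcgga

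The direction of the G2 and mitosis genes differed with and without antigen. Without antigen, in the 3 libraries each of KO_none and WT_none, 22 of the same 26 G2 and mitosis genes were lower in knockout (median -0.269), beside 7.25% lower over all tested genes. The difference of the genotype effect, with antigen minus without, was above 0 and called for 25 of the 26, beside 3.79% of all tested genes. For Ccna2 this difference was 0.97 (adjusted p 3.03e-09). Ccna2 averaged 36.3 CPM in KO_Ag and 22.9 CPM in WT_Ag, and 54.7 CPM in KO_none and 67.4 CPM in WT_none. Of the 28 replication genes 6 were lower and 1 higher without antigen (median -0.126), beside 7.25% lower and 9.62% higher over all tested genes, the other 21 were not called, and 18 had a called difference above 0.

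**Figure D3:**
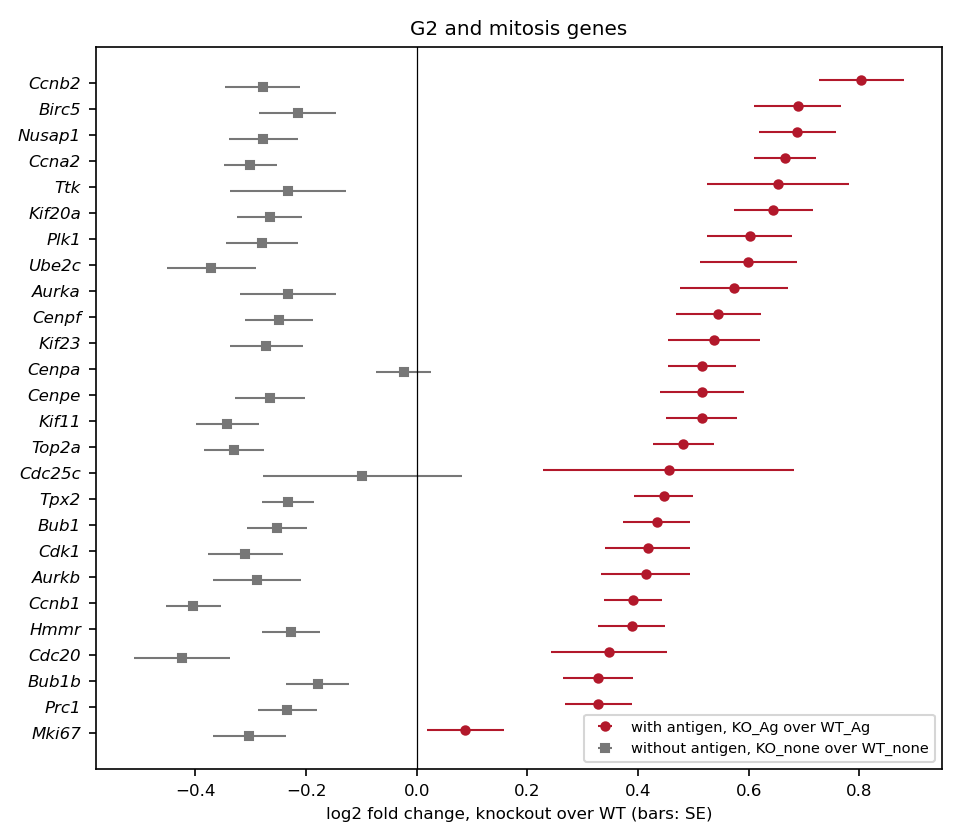
Log2 fold change of knockout over WT with its SE (x axis) for 26 G2 and mitosis genes (y axis), with antigen in red and without antigen in grey. With antigen all points lie above 0, 24 of them called, and without antigen 22 genes are called lower.

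Immunoglobulin RNA was far higher in KO_Ag. Of 182 tested immunoglobulin genes 178 were higher and the other 4 were not called. The low-count filter used all 8 groups, so genes near the floor in WT_Ag could be tested and could hardly come out lower. The count of 178 was therefore partly fixed by the filter. All immunoglobulin genes together, tested or not, made up 0.494, 0.414 and 0.467% of counts in KO_Ag and 0.012, 0.00966 and 0.0152% in WT_Ag. Among the heavy chain constant regions, those of switched classes are given first. Ighg2c, the constant region of IgG2c, stood at 557, 471 and 528 CPM in KO_Ag and 0.903, 1.05 and 2.07 CPM in WT_Ag, 385-fold higher (8.59 ± 0.338, adjusted p 1.01e-11). Ighg2b was 166-fold higher, Ighg1 79.5-fold and Igha, of IgA, 15.9-fold. Ighm, the IgM constant region, stood at 110, 78.9 and 93 CPM in KO_Ag and 30.5, 28.6 and 34.1 CPM in WT_Ag, 3.04-fold higher (adjusted p 1.28e-05). Ighd, the IgD constant region of naive B cells, stood at 1.06, 0.845 and 0.838 CPM in KO_Ag and 1.19, 1.3 and 1.43 CPM in WT_Ag and did not pass (-0.51, adjusted p 0.25). Reads of immunoglobulin segments may be shared between related segments, so single segments are uncertain.

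Of 8 tested plasma cell markers 5 were higher and 1 lower (median 0.659), and their sum was 439 to 464 CPM in KO_Ag and 309 to 326 CPM in WT_Ag. Jchain, which joins IgM and IgA units, carried that difference, at 152, 134 and 148 CPM in KO_Ag and 5.76, 4.69 and 7.79 CPM in WT_Ag. Without it the markers summed to 304 to 316 CPM in KO_Ag and 305 to 318 CPM in WT_Ag. Mzb1, a chaperone of antibody secretion, stood at 0.765, 0.547 and 0.97 CPM in KO_Ag and 0.0565, 0.126 and 0 CPM in WT_Ag. Derl3, of endoplasmic reticulum degradation, stood at 2.68, 1.49 and 2.03 CPM in KO_Ag and 0.169, 0.126 and 0.0986 CPM in WT_Ag. No fold is given for these 2 genes because the WT level was at the floor of 3 counts per library. Sdc1, which encodes the plasma cell surface protein CD138 and is also made by other cells, was the member called lower, at 80.1, 86.8 and 93 CPM in KO_Ag against 118, 111 and 119 CPM in WT_Ag (-0.42 ± 0.0663, adjusted p 8.33e-05). Prdm1, a master regulator of plasma cells, did not pass (0.06, adjusted p 0.513). Of 9 tested B cell markers 3 were lower and 1 higher, and without WT_Ag replicate 3 only 1 was lower. Pax5, the factor of B cell identity that plasma cells switch off, stood at 1.32, 1.04 and 0.529 CPM in KO_Ag and 1.81, 2.22 and 2.61 CPM in WT_Ag (-1.20 ± 0.267, adjusted p 0.00198). The part of plasma cell or B cell number in the immunoglobulin values was not tested.

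Genes of extracellular matrix were lower. Of 22 matrix and basement membrane genes 18 were lower and the other 4 were not called (median -1.86), beside 7.62% lower over all tested genes. Fn1, fibronectin, stood at 14.7, 15.1 and 16.3 CPM in KO_Ag and 64.1, 51.8 and 75.7 CPM in WT_Ag, 4.14-fold lower (adjusted p 3.28e-05). Tnc, tenascin C, which is laid down in wounds and tumours, stood at 4.89, 4.37 and 4.63 CPM in KO_Ag and 22.5, 16.7 and 23.4 CPM in WT_Ag, 4.46-fold lower (-2.16 ± 0.389, adjusted p 0.000914). The basement membrane genes Hspg2, perlecan, and Nid1, nidogen, were lower at -1.99 ± 0.374 (adjusted p 0.00122) and -2.26 ± 0.428 (adjusted p 0.00129). Hspg2 stood at 2.04, 2.09 and 2.12 CPM in KO_Ag and 9.09, 7.04 and 8.88 CPM in WT_Ag. WT_Ag replicate 2 was the lowest WT library for each of these genes and still lay above every knockout library. Loxl2, which crosslinks collagen and is not in that list, stood at 2.34, 2.24 and 2.34 CPM in KO_Ag and 10.1, 6.74 and 11.2 CPM in WT_Ag (-2.01 ± 0.364, adjusted p 0.000887). The members not called included Thbs1, thrombospondin 1, at 3960, 5540 and 5300 CPM in KO_Ag and 5680, 5970 and 6040 CPM in WT_Ag (-0.26, adjusted p 0.182), and Spp1, osteopontin, at 121, 191 and 143 CPM in KO_Ag and 140, 164 and 158 CPM in WT_Ag (-0.02).

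The list of fibroblast markers shares 4 members with the matrix list (Col1a1, Col1a2, Col3a1 and Postn). Of 10 tested fibroblast markers 6 were lower and the other 4 were not called (median -1.49), and their sum was 50.9 to 60.3 CPM in KO_Ag and 133 to 199 CPM in WT_Ag. Of the 6 not shared, 2 were lower, Pdgfra and Pdgfrb (median -0.40), and the 6 summed to 12.8 to 15.1 CPM in KO_Ag and 16.7 to 23 CPM in WT_Ag. Pdgfrb, a receptor of fibroblasts and pericytes, stood at 2.38, 2.14 and 2.51 CPM in KO_Ag and 6.32, 4.65 and 6.61 CPM in WT_Ag (-1.31 ± 0.238, adjusted p 0.000395). Dcn, decorin, stood at 1.83, 1.14 and 1.37 CPM in KO_Ag and 2.03, 1.63 and 2.76 CPM in WT_Ag and did not pass (-0.54, adjusted p 0.169), nor did Lum (-0.26) and Fap (0.01). The part of stromal cells in the matrix result was not tested. Of 21 integrin and adhesion genes 3 were higher, 2 lower and 16 not called (median -0.0161), beside 7.7% higher and 7.62% lower over all tested genes. The number higher was 1 without WT_Ag replicate 1 and 5 without KO_Ag replicate 1. Vcam1, which binds lymphocyte integrins, stood at 25.2, 25.3 and 24.6 CPM in KO_Ag and 59.6, 61.9 and 63.2 CPM in WT_Ag, 2.46-fold lower (-1.30 ± 0.0772, adjusted p 9.28e-12). Icam2, another integrin ligand, stood at 10.2, 10.7 and 9.92 CPM in KO_Ag and 6.04, 7.54 and 5.62 CPM in WT_Ag (0.67 ± 0.099, adjusted p 1.3e-05). Cd81, a tetraspanin, stood at 8.54, 9.09 and 7.76 CPM in KO_Ag and 15.9, 15.8 and 15.5 CPM in WT_Ag (-0.90 ± 0.0881, adjusted p 1.31e-08). Plaur, the urokinase receptor, of the list of matrix proteases and inhibitors, stood at 88.8, 96.5 and 99.4 CPM in KO_Ag and 70.5, 70.5 and 70.4 CPM in WT_Ag (0.43 ± 0.0501, adjusted p 2.9e-07). In none of these 4 genes, chosen among called genes, did the genotypes overlap, as for 31% of all tested genes.

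**Figure D4:**
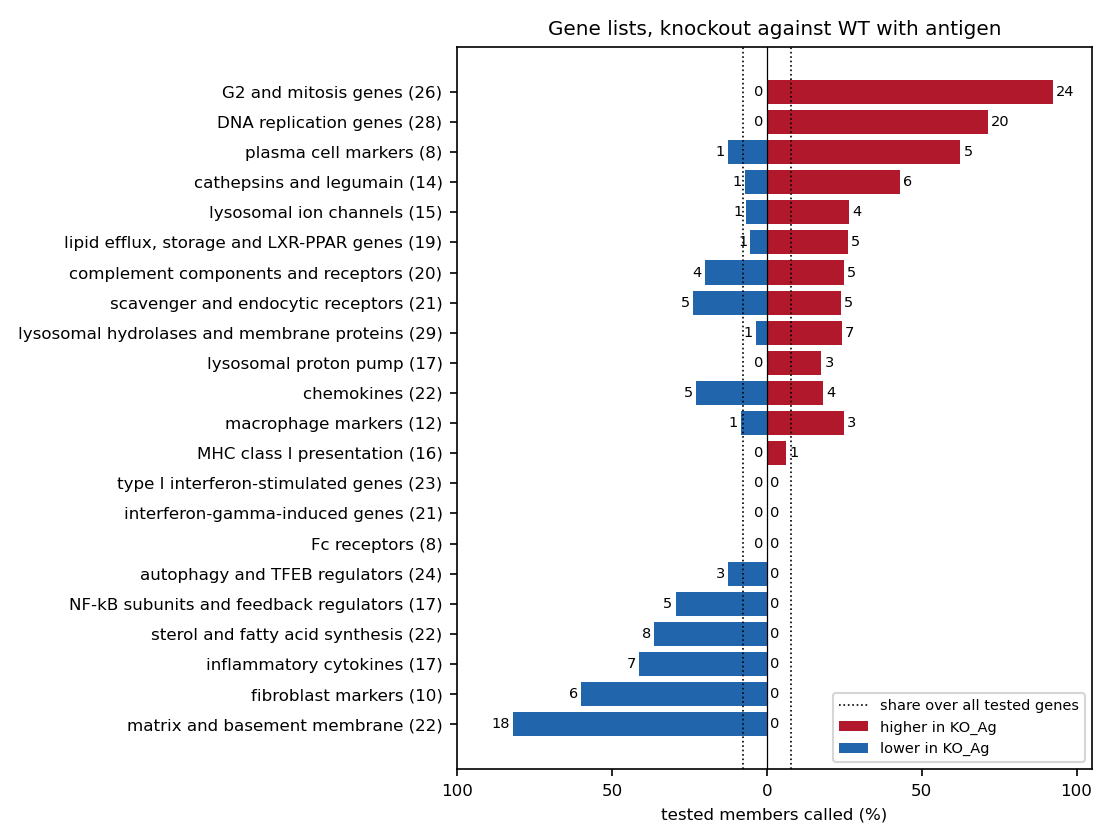
Percent of the tested members of 22 gene lists called higher (red, to the right) or lower (blue, to the left) in KO_Ag, with the number of members called at each bar. The dotted lines mark the share over all tested genes, 7.7% higher and 7.62% lower, and the G2 and mitosis, DNA replication and matrix lists extend far past them.

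Lipid genes divided into storage and synthesis. Plin2, the coat protein of lipid droplets, stood at 327, 350 and 333 CPM in KO_Ag and 204, 227 and 208 CPM in WT_Ag, 1.58-fold higher (0.66 ± 0.0632, adjusted p 9.67e-08). Cpt1a, the gate of mitochondrial fatty acid oxidation, stood at 98.5, 103 and 104 CPM in KO_Ag and 82.8, 84 and 84.8 CPM in WT_Ag (0.28 ± 0.047, adjusted p 8.15e-05). Of 19 lipid efflux and storage genes 5 were higher and 1 lower, beside 7.7% and 7.62% of all tested genes. Without KO_Ag replicate 1, 8 were higher. Of 22 sterol and fatty acid synthesis genes 8 were lower (median -0.155), and 5 were lower without KO_Ag replicate 1 or without WT_Ag replicate 3. Fasn, fatty acid synthase, stood at 22.4, 25.2 and 26.2 CPM in KO_Ag and 36.6, 29.7 and 32.1 CPM in WT_Ag (-0.41 ± 0.0722, adjusted p 0.000159). Scd1, which desaturates fatty acids, stood at 2.93, 4.97 and 2.6 CPM in KO_Ag and 6.44, 9.13 and 8.93 CPM in WT_Ag, 2.38-fold lower (adjusted p 0.00109).

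Of 21 glycolysis and hypoxia genes 3 were lower (median -0.173), beside 7.62% of all tested genes, and 7 were lower with the 6 libraries alone. Vegfa, the vascular growth factor, stood at 288, 287 and 313 CPM in KO_Ag and 396, 391 and 405 CPM in WT_Ag, 1.34-fold lower (adjusted p 0.00957). Gapdh did not pass (-0.09). Ptges, which makes prostaglandin E2, stood at 26.7, 27.5 and 28.3 CPM in KO_Ag and 40.6, 36.4 and 38.1 CPM in WT_Ag, 1.39-fold lower (adjusted p 1.02e-05). Hp, haptoglobin, stood at 158, 161 and 175 CPM in KO_Ag and 224, 222 and 219 CPM in WT_Ag (-0.43 ± 0.0579, adjusted p 8.15e-06). Slc11a1, a metal exporter of the phagosome, stood at 691, 708 and 706 CPM in KO_Ag and 621, 633 and 636 CPM in WT_Ag (0.16 ± 0.0279, adjusted p 0.000191). The genotypes did not overlap in these 4 called genes.

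The T cell, cytotoxic and neutrophil lists held few calls, beside 7.7% higher and 7.62% lower over all tested genes. Their medians of 0.333, 0.301 and 0.154 lay above the 0.00415 of all tested genes. The B cell, plasma cell and immunoglobulin results are given above. Of 12 tested T cell markers 1 was higher and 1 lower, and both calls were lost without KO_Ag replicate 1, WT_Ag replicate 1 or WT_Ag replicate 2, among others. Cd8a had a log2 fold change of 0.28 (adjusted p 0.262). Cd4, which mouse macrophages and dendritic cells may also carry and which is not in that list, stood at 4.46, 5.22 and 5.16 CPM in KO_Ag and 15.1, 15.5 and 18.1 CPM in WT_Ag (-1.72 ± 0.0889, adjusted p 3.16e-14). Of 12 tested cytotoxic cell genes 1 was higher, Gzma, granzyme A, at 3.36, 3.48 and 2.91 CPM in KO_Ag against 1.24, 0.88 and 2.07 CPM in WT_Ag (1.23 ± 0.25, adjusted p 0.00087), and 3 were higher without WT_Ag replicate 3. Ifng, interferon gamma, did not differ detectably (0.05, adjusted p 0.924). Of 13 neutrophil markers 2 were higher, the granule genes Ngp, at 30.9, 33 and 32.8 CPM in KO_Ag and 15, 15.7 and 19.9 CPM in WT_Ag (0.93 ± 0.142, adjusted p 0.000163), and Ltf, at 3.61, 3.28 and 3.35 CPM in KO_Ag and 1.02, 1.17 and 1.18 CPM in WT_Ag (1.59 ± 0.334, adjusted p 0.00257). The summed neutrophil markers nonetheless stood at 1160 to 1260 CPM in KO_Ag and 1180 to 1280 CPM in WT_Ag. The 7 melanoma markers summed to 74.3 to 78.3 CPM in KO_Ag and 82.3 to 89 CPM in WT_Ag, and 1 of them, Mitf, had enough counts to be tested. Mitf, a transcription factor of melanocytes that macrophages also carry, stood at 74.1, 78 and 75 CPM in KO_Ag and 82.1, 88.6 and 83 CPM in WT_Ag (-0.16 ± 0.0468, adjusted p 0.0178), a call lost without KO_Ag replicate 1 or 3 or WT_Ag replicate 2 (0.0625 to 0.123). Tyr was at 0 in all 6 libraries, and the highest count of Pmel in a library was 6.

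A few single genes had differences that were wide beside their spread. Bmpr1a, a receptor for bone morphogenetic proteins, stood at 32.2, 31 and 34 CPM in KO_Ag and 7.74, 7.5 and 7.84 CPM in WT_Ag, 4.22-fold higher (2.08 ± 0.072, adjusted p 3.2e-18). Gdf3, a ligand of the same superfamily that macrophages secrete during muscle repair, stood at 14.9, 16 and 14 CPM in KO_Ag and 4.01, 5.15 and 3.25 CPM in WT_Ag, 3.56-fold higher (adjusted p 1.01e-11). Arhgef18, a guanine nucleotide exchange factor, stood at 23, 22.9 and 21 CPM in KO_Ag and 9.43, 8.55 and 9.67 CPM in WT_Ag, 2.42-fold higher (adjusted p 4.68e-12). All 3 separated the genotypes by far more than the spread within either. F7, coagulation factor VII, was 1.96-fold higher (adjusted p 9.63e-06). Ifi208, of the interferon-inducible HIN-200 family, stood at 27.1, 19.5 and 18.9 CPM in KO_Ag and 0.169, 0.126 and 0.0986 CPM in WT_Ag, a floor level in WT at which no fold is given, and reads could be shared with related family members.

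On the lower side, Plxdc2, a membrane receptor, stood at 0.935, 1.49 and 1.19 CPM in KO_Ag and 6.1, 7.79 and 7.89 CPM in WT_Ag, 6.1-fold lower (-2.61 ± 0.155, adjusted p 8.5e-13). Epb41l3, a membrane skeleton protein, stood at 16, 19.2 and 15.6 CPM in KO_Ag and 40.5, 40.3 and 40.5 CPM in WT_Ag, 2.4-fold lower (adjusted p 1.88e-12). Palld, palladin, an actin crosslinker, stood at 10.2, 11.8 and 11.4 CPM in KO_Ag and 22.9, 20 and 22.2 CPM in WT_Ag, 1.95-fold lower (adjusted p 3.22e-10). The WT libraries of Epb41l3 were nearly identical, and none of these 3 genes overlapped between genotypes.

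The antigen comparison was set beside the same genotype comparison in the other conditions of the series. Without antigen 2379 genes were called (16.9%), and 781 of them were called in the same direction with antigen, which is 36.2% of the antigen calls and 32.8% of the calls without antigen, whereas 147 were called in opposite directions. The difference of the genotype effect, with antigen minus without, was called for 1183 genes (8.39%), 534 above 0 and 649 below. Marco, Vcam1, Lyz2 and Wdfy1 were lower in both conditions, and the difference was called among these for Vcam1 (0.60, adjusted p 0.0015), which averaged 25 CPM in KO_Ag and 61.6 CPM in WT_Ag, and 16.5 CPM in KO_none and 61.2 CPM in WT_none. Cd5l had a called difference of -1.02 (adjusted p 0.00481), and so had Palld, -0.94 (adjusted p 1.31e-06). Palld averaged 11.2 CPM in KO_Ag and 21.7 CPM in WT_Ag, but 18.1 CPM in KO_none and 18.3 CPM in WT_none.

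With a cytokine, IL-1β or IL-18, added at 500 pg/ml beside the antigen, the genotype comparison called 1941 (13.8%) and 2851 (20.2%) genes. Of the antigen calls 1311 were called in the same direction with IL-1β (60.7% of the antigen calls and 67.5% of those with IL-1β) and 1429 with IL-18 (66.2% and 50.1%). The genotype effect with antigen alone differed from that with IL-1β for 0 genes by edgeR at the adjusted threshold, 576 at an unadjusted p under 0.05 and 0 by DESeq2. It differed from that with IL-18 for 0 genes by edgeR, 919 unadjusted and 4 by DESeq2. Missing the threshold does not show that the effects are equal. Of the G2 and mitosis genes 23 of 26 were higher in knockout with IL-1β and 23 of 26 with IL-18, beside 7.22% and 9.89% of all tested genes. Of the 22 matrix genes 17 were lower with IL-1β and 19 with IL-18, beside 6.55% and 10.3%, and 14 were lower without antigen too (median -1.57). The difference between the effects with and without antigen was called for 1 of the 22, Fn1.

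**Figure D5:**
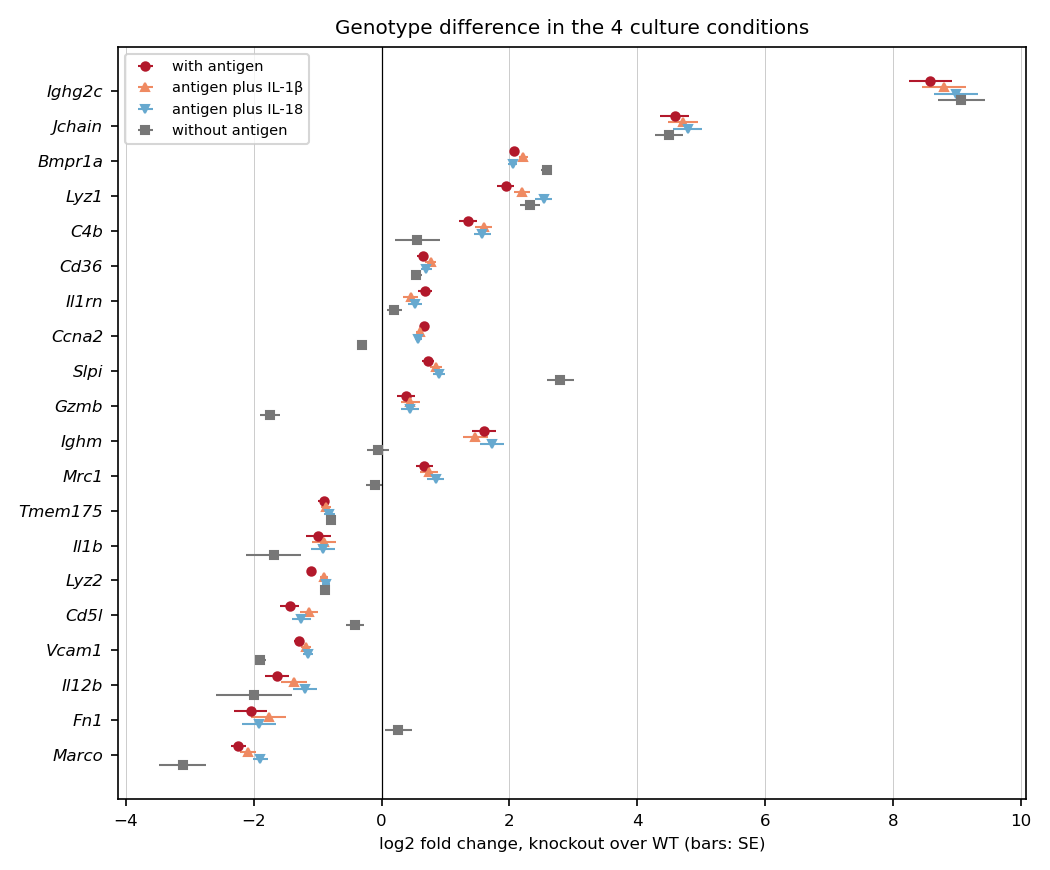
Log2 fold change of knockout over WT with its SE (x axis) for 20 genes (y axis) with antigen, with antigen plus IL-1β, with antigen plus IL-18 and without antigen. The 3 antigen conditions lie close together for most genes, and the values without antigen stand apart for genes such as Fn1, Ccna2 and Gzmb.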

How the data were processed

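Poly(A) RNA of co-cultures was extracted with Trizol, per the labels' protocols. The authors deposited raw counts per Ensembl mouse gene, 1 column per library; fastp and GRCm39 are named in the submitters' processing notes, and the aligner, counter and annotation are not given in the sources used here. Of 55487 identifiers 346 (0.0228% of counts) had no symbol. Groups came from the sample titles. Genes were kept with filterByExpr (14099, with 99.9% of counts), scaled with TMM and fitted with edgeR 4.0.16 (R 4.3.3, robust quasi-likelihood) over all 24 libraries of 8 groups, with 16 residual degrees of freedom and a common biological coefficient of variation of 5.01%. Depth of 17744540 to 24060414 counts in the 6 libraries limits precision for low genes. Promoters and gene order came from RefSeq GRCm38.p6. The gene-naming rule took genes of interest, the largest folds and CPM differences, called and uncalled members of 51 lists, and the largest differences between conditions; among these, genes that kept their call under the alternatives were preferred after their values were seen. The comparison, members and lists were chosen with earlier results of these data known. Alternatives were median-of-ratios factors, DESeq2 1.42.0, no low-count filter, a replicate block, the compared libraries alone, no immunoglobulin genes, and each library left out.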

Additional observations from a re-analysis of the deposited data

Results flagged for a closer look

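For 29 genes named by the rule or described above, the genotype effect with antigen differed from that without antigen, by edgeR's quasi-likelihood test of the difference itself (with antigen minus without, on the log2 scale, adjusted over all tested genes). The difference was above 0 for 18 and below 0 for 11, and such a difference was called for 8.39% of all tested genes. The 2 cultures share no libraries.

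Of 12 tested cytotoxic cell genes 4 were lower in knockout without antigen, beside 7.25% of all tested genes, and 4 had a called difference above 0, beside 3.79%. Gzmb and Gzma were among them. The difference for Gzmb, granzyme B, was 2.12 ± 0.212 (adjusted p 6.04e-06), with means of 44.3 CPM in KO_Ag and 34.1 CPM in WT_Ag, and 13.5 CPM in KO_none and 45 CPM in WT_none. For Gzma it was 2.31 ± 0.338 (adjusted p 4.65e-05), with 3.25 CPM in KO_Ag and 1.4 CPM in WT_Ag, and 1.96 CPM in KO_none and 4.18 CPM in WT_none. Rasgrp3, an activator of Ras in B cells and macrophages, differed by 1.86 (adjusted p 0.00032), with 1.55 CPM in KO_Ag and 0.698 CPM in WT_Ag, and 18.5 CPM in KO_none and 30.4 CPM in WT_none.

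Monocyte chemokines also had a difference above 0, which was 1.49 for Ccl2, 1.78 for Ccl7 and 2.45 for Ccl12 (adjusted p 0.00441, 0.00647 and 0.00958), and that of Ccl7 was lost with the compared libraries alone (0.0677). Ccl12 averaged 25.9 CPM in KO_Ag and 14.1 CPM in WT_Ag, and 0.53 CPM in KO_none and 1.52 CPM in WT_none. The interferon-stimulated genes Ifit1bl1 and Ifit3 differed by 1.72 and 1.36 (adjusted p 0.0379 and 0.0474). These calls were lost under 11 and 12 of 18 alternatives, with adjusted p of up to 0.119 (without KO_Ag replicate 1) and 0.127 (without KO_none replicate 1). The Toll-like receptor gene Tlr2 differed by 0.86 (adjusted p 9.09e-06), with 184 CPM in KO_Ag and 195 CPM in WT_Ag, and 45.5 CPM in KO_none and 87.2 CPM in WT_none.

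Of the cell division genes, Ccna2 differed by 0.97, Ccnb2 by 1.08 and Top2a by 0.81 (adjusted p 3.03e-09, 7.33e-08 and 1.55e-07). Ccnb2 averaged 17.2 CPM in KO_Ag and 9.84 CPM in WT_Ag, and 20.7 CPM in KO_none and 25.1 CPM in WT_none. Among B cell genes, Ighm differed by 1.66 (adjusted p 0.000633), with 94.1 CPM in KO_Ag and 31.1 CPM in WT_Ag, and 79.6 CPM in KO_none and 82.7 CPM in WT_none. Ighd differed by 1.98 (adjusted p 0.0135), which was lost without KO_none replicate 3 (0.0645). It averaged 0.915 CPM in KO_Ag and 1.3 CPM in WT_Ag, and 0.194 CPM in KO_none and 1.13 CPM in WT_none. The difference of Ighd thus rests on a level near the floor in KO_none, and with antigen Ighd was not called. Smaller positive differences were those of Mrc1, 0.78, Vcam1, 0.60, Havcr2, 0.48, and Irf4, 0.70 (adjusted p 0.0175, 0.0015, 0.00499 and 0.0191). That of Irf4 was lost without KO_Ag replicate 3, WT_Ag replicate 1, KO_none replicate 3 or WT_none replicate 2, with an adjusted p of up to 0.0719.

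Differences below 0 were led by genes whose knockout and WT levels lay close together, or with knockout higher, without antigen. Fn1 differed by -2.31 (adjusted p 0.000349), with 15.4 CPM in KO_Ag and 63.9 CPM in WT_Ag, and 151 CPM in KO_none and 126 CPM in WT_none. Nes, nestin, differed by -2.36 (adjusted p 0.000619), with 0.358 CPM in KO_Ag and 2.02 CPM in WT_Ag, and 47.1 CPM in KO_none and 52.5 CPM in WT_none. The growth factor receptor gene Fgfr1 differed by -1.34 (adjusted p 0.00805) and Lrrc32, which anchors latent TGF-beta, by -1.02 (adjusted p 0.0164, and 0.0549 without WT_Ag replicate 3). Slpi, a secreted inhibitor of serine proteases, differed by -2.07 (adjusted p 2.18e-05), with 92.8 CPM in KO_Ag and 56.2 CPM in WT_Ag, and 12.7 CPM in KO_none and 1.83 CPM in WT_none. Acp5, a phosphatase of osteoclasts and macrophages, differed by -0.94 (adjusted p 1.13e-05), with 285 CPM in KO_Ag and 215 CPM in WT_Ag, and 65.7 CPM in KO_none and 25.8 CPM in WT_none.

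Sdc1 differed by -0.88 (adjusted p 1.81e-06), with 86.6 CPM in KO_Ag and 116 CPM in WT_Ag, and 172 CPM in KO_none and 125 CPM in WT_none. Cd5l differed by -1.02 and Palld by -0.94, as given above. Slc7a2 differed by -0.90 (adjusted p 0.0194), with 13.7 CPM in KO_Ag and 26.4 CPM in WT_Ag, and 18.1 CPM in KO_none and 18.5 CPM in WT_none. Gpi1, of glycolysis, differed by -0.33 (adjusted p 0.000647). Apart from the 6 genes whose loss is given above (Ccl7, Ifit1bl1, Ifit3, Ighd, Lrrc32 and Irf4), each of these differences kept its call under every alternative that gave it a value, and none of the 29 changed sign.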

How the results depend on the processing

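With each library left out in turn, the number of genes higher in KO_Ag ran between 869 and 1031 (1085 with all), lower between 773 and 908 (1075), at least 2-fold higher between 252 and 262 (259) and at least 2-fold lower between 235 and 322 (304); the lowest counts of all calls were those without WT_Ag replicate 3. The difference with antigen minus without ran between 819 (without KO_none replicate 3) and 1697 (without KO_none replicate 2), against 1183. Without immunoglobulin genes, 81 in place of 259 were at least 2-fold higher. The difference from antigen plus IL-1β was called for 1 gene with no filter in place of 0. That from antigen plus IL-18 was called for 4 with DESeq2, 17 with no filter and 5 with the replicate block in place of 0. The labels do not say whether libraries of the same replicate number are pairs, and the main fit did not pair them. Same-numbered libraries correlated at 0.344, 0.382 and -0.013 over 9867 genes, against -0.44 and -0.298 between replicates 1 and 2. KO_Ag replicate 3 did not correlate best with its own number. On the second principal component (10.5% of the variance) replicate 1 lay at 8.06 in KO_Ag and 6.69 in WT_Ag. Replicate 2 lay at -8.36 and -6.28, and replicate 3 between them at 0.21 and -0.32. Libraries of the same number thus lay alike in both genotypes, which the replicate block takes into account. The block gave 1310 higher and 1326 lower genes, 1596 for the difference from no antigen, and 8 lower NF-kB regulators in place of 5. DESeq2 called 1827 genes, 1777 of them among the 2160, and the 6 libraries alone called 1819, 1675 of them shared. Median-of-ratios factors put the median of all genes at 0.00192 in place of 0.00415. Of 232 called genes covered by the naming rule, 169 kept their call under every alternative, 63 lost it under at least 1, and 0 changed direction. Genes near 1 CPM, such as Cd163 and Il22, rest on few counts.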

Other observations

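Some groups not described above held called genes, to be set beside 7.7% higher and 7.62% lower over all tested genes. Of 19 apoptosis regulators 3 were lower, among them the death receptor genes Fas, at 24.6, 23.4 and 24.5 CPM in KO_Ag and 32, 28.4 and 30.3 CPM in WT_Ag (-0.32 ± 0.0686, adjusted p 0.00151), and Tnfrsf10b, at 2.17, 1.64 and 2.38 CPM in KO_Ag and 3.9, 3.98 and 3.3 CPM in WT_Ag (-0.84 ± 0.182, adjusted p 0.00151). Neither overlapped between genotypes. Of 11 macrophage fusion and osteoclast-like genes 3 were higher, and 6 without KO_Ag replicate 1. They included Ctsk, given above. Of 21 ER folding genes 5 were lower and 2 higher, and 2 were lower without KO_Ag replicate 2 or without WT_Ag replicate 1, and 3 without KO_Ag replicate 1 or WT_Ag replicate 2. Creld2, a gene of ER stress, was higher at 24.4, 23.5 and 23.2 CPM in KO_Ag against 18.4, 16.5 and 17.1 CPM in WT_Ag, 1.37-fold (adjusted p 0.000269). Hyou1, an ER chaperone, was lower, at 131, 132 and 132 CPM in KO_Ag against 151, 145 and 145 CPM in WT_Ag (-0.16 ± 0.0352, adjusted p 0.00181).

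Il22, a cytokine of type 17 lymphocytes that acts on epithelia, stood at 0.468, 0.149 and 0.132 CPM in KO_Ag and 1.36, 0.88 and 1.53 CPM in WT_Ag, 4.74-fold lower (adjusted p 0.000389). Dhrs9, a retinol dehydrogenase of macrophages, stood at 11.5, 12.1 and 12.4 CPM in KO_Ag and 5.93, 7.04 and 6.21 CPM in WT_Ag, 1.86-fold higher (adjusted p 4.15e-08). Wwc2, of the Hippo pathway, stood at 37.8, 41.4 and 39.4 CPM in KO_Ag and 20.6, 22.5 and 21.7 CPM in WT_Ag, 1.83-fold higher (adjusted p 2.06e-11). The genotypes were apart for all 3 genes.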
